A study of Mus musculus with 6 samples.

Results

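The genes described here are the 3 genes of the Cdkn2a locus (Cdkn2a, Cdkn2b and Mtap), 4 further inhibitors of cyclin-dependent kinases (Cdkn1b, Cdkn1c, Cdkn2c and Cdkn2d) and the 3 D cyclins (Ccnd1, Ccnd2 and Ccnd3). They are 10 of the 18193 genes that had a probe set with exactly 1 gene symbol in the platform annotation, and 24 of 45101 probe sets belonged to them. All 10 were measured, and each is given by its brightest probe set, selected on the mean of all 6 arrays. The genes were chosen by what earlier results of these arrays showed for the difference between the genotypes, so their values and differences are a description and carry no test.

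E-FABP deficient (EKO) and wild-type (WT) mice received DMBA, which initiates skin tumours by mutation, and the phorbol ester TPA, which promotes their outgrowth, over 5 months. The excised tumours were dissociated into single cells, whose total RNA was read on an Affymetrix 3' array, with 3 EKO and 3 WT arrays. The sample labels call the cells keratinocytes and the design text calls them tumour cells. The sample titles name a mouse and a biological replicate and not a tumour, so an EKO or WT tumour below stands for 1 array. The strain, age and sex of the mice and the way the gene was disrupted are not stated in the labels or the design text, and every mouse of both groups had received both agents, so no untreated skin stands beside the tumours. Values are log2 values after RMA, a procedure that subtracts background, aligns the arrays and condenses each probe set into 1 value, and a difference of 1 is a doubling. Differences are EKO minus WT, with the standard error (SE) from limma, and groups are called non-overlapping when all 3 EKO values lie on one side of all 3 WT values.

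As background, D cyclins bind Cdk4 and Cdk6 and start the phosphorylation of the retinoblastoma protein, which releases E2F factors and lets a cell enter S phase. The Ink4 proteins, encoded by Cdkn2a, Cdkn2b, Cdkn2c and Cdkn2d, block Cdk4 and Cdk6, while the Kip proteins, encoded by Cdkn1b and Cdkn1c, bind complexes of cyclin and kinase more broadly. Cdkn2a also encodes Arf from another first exon, a protein that restrains Mdm2 and so stabilises p53, and the locus is a known barrier to the progression of chemically induced mouse skin tumours. Cyclin D1 is a mitogen-responsive gene downstream of Ras, the oncogene commonly mutated by DMBA in mouse skin.

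Fabp5, which encodes E-FABP, read 8.21, 8.30 and 7.98 in EKO replicates 1, 2 and 3, against 14.82, 14.94 and 14.80 in WT replicates 1, 2 and 3, so this gene sorted all 6 arrays as labelled. The array medians lay between 5.41 and 5.43. Keratinocyte markers had a mean log2 level of 13.64 to 13.80 in EKO and 13.63 to 13.84 in WT arrays, with 7 of 8 listed genes measured and 0 called. Across all genes 1 was called at an adjusted p under 0.05, which was Fabp5, and leaving out EKO replicate 2 raised the number to 42. With 3 arrays per group, precision is limited throughout.

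The upstream sequences of the locus are shown because its genes lie side by side and differ in what they did. Each is the 250 bases before a RefSeq start on build GRCm38.p6, written 5′ to 3′ along the gene's strand. Capitals mark matches on either strand to 6 motifs: AP-1 (TGACTCA), the cAMP response element (TGACGTCA), the antioxidant response element (TGACNNNGC), a SOX core (CATTGT), E2F (TTTCGCGC, TTTGGCGC or TTTCCCGC) and the GC box (GGGCGG). Cdkn2a has a pair of starts in this table, the outer one for the Arf transcript and the inner one for the Ink4a transcript.
Cdkn2a, outer start, chr4:89294620-89294869, minus strand: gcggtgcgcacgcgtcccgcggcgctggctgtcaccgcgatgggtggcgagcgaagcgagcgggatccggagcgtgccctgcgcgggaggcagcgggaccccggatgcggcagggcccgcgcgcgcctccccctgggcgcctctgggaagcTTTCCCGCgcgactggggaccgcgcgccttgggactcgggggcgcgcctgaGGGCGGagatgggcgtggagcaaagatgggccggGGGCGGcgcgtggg
Cdkn2a, inner start, chr4:89282193-89282442, minus strand: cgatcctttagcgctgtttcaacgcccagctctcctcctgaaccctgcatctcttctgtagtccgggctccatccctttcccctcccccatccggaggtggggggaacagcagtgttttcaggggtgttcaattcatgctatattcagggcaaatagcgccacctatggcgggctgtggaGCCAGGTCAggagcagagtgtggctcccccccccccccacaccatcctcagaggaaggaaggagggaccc
Cdkn2b, chr4:89311033-89311282, minus strand: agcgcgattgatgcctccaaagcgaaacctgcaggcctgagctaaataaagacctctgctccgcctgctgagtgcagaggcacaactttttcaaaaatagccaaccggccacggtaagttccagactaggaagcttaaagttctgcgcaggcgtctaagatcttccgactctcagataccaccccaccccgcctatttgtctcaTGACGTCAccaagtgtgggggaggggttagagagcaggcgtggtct
Mtap, chr4:89137120-89137369, plus strand: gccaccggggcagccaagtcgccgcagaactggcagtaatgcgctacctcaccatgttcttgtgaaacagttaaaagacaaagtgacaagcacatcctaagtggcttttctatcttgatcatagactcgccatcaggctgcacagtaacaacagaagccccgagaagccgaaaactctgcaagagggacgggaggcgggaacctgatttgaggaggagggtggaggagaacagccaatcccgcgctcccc
The outer Cdkn2a start held 1 E2F match, which 1.53% of 32851 such windows in the table hold, and 2 GC boxes, which 32.7% hold. The inner start held 1 antioxidant response element (10.2% of windows), and Cdkn2b held 1 cAMP response element (1.55%). The Mtap window matched 0 of the 6 motifs. Neither AP-1 (4.46% of windows) nor the SOX core (10.7%) was found in the 10 windows of the 7 genes that matched the table. Such a match is a run of letters and not a shown binding site. Ccnd1, Ccnd2 and Cdkn1c had no entry.

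At the Cdkn2a locus, Cdkn2a and Mtap were higher in each EKO tumour than in any WT tumour, while Cdkn2b had nearly the same level in both groups. Cdkn2a, the gene of Ink4a and Arf, read 6.86, 5.91 and 7.03 in EKO replicates 1, 2 and 3, against 5.73, 5.33 and 5.44 in WT replicates 1, 2 and 3. EKO replicates 1 and 3 stood apart at the top, and EKO replicate 2 lay 0.18 above the highest WT value, a gap below the WT SD of 0.205. The means were 6.60 ± 0.601 in EKO and 5.50 ± 0.205 in WT tumours (SD, n = 3 each), a difference of 1.10 (SE 0.285), or 2.14-fold. The WT values lay close to the array medians, and the data carry no detection calls, so Cdkn2a is not shown to be above background in WT tumours. RMA narrows differences near background, so the size of this difference is not exact. The sources used here do not give which of the Ink4a and Arf transcripts its 1 probe set reads.

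Mtap, which encodes methylthioadenosine phosphorylase of methionine salvage and lies next to Cdkn2a, read 10.07, 9.29 and 9.90 in EKO replicates 1, 2 and 3, against 8.999, 8.98 and 9.05 in WT replicates 1, 2 and 3. The WT values spanned 0.070 and the EKO values 0.78, with EKO replicate 2 again nearest to WT. The difference was 0.74 (SE 0.193), or 1.67-fold. All 4 Mtap probe sets had higher EKO means, with differences from 0.72 to 1.01, and 3 of the 4 separated the groups without overlap. On the remaining one, EKO replicate 2 read 7.64, inside the WT range of 7.46 to 7.80.

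Cdkn2b, which encodes Ink4b and is the nearest protein-coding neighbour on the other side of Cdkn2a, read 8.14, 8.10 and 8.05 in EKO replicates 1, 2 and 3, against 7.85, 8.11 and 8.06 in WT replicates 1, 2 and 3. The groups overlapped, and the difference was 0.092 (SE 0.0973). The EKO values spanned 0.095, so the split of replicates 1 and 3 from replicate 2 seen for Cdkn2a and Mtap was not present.

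**Figure D1:**
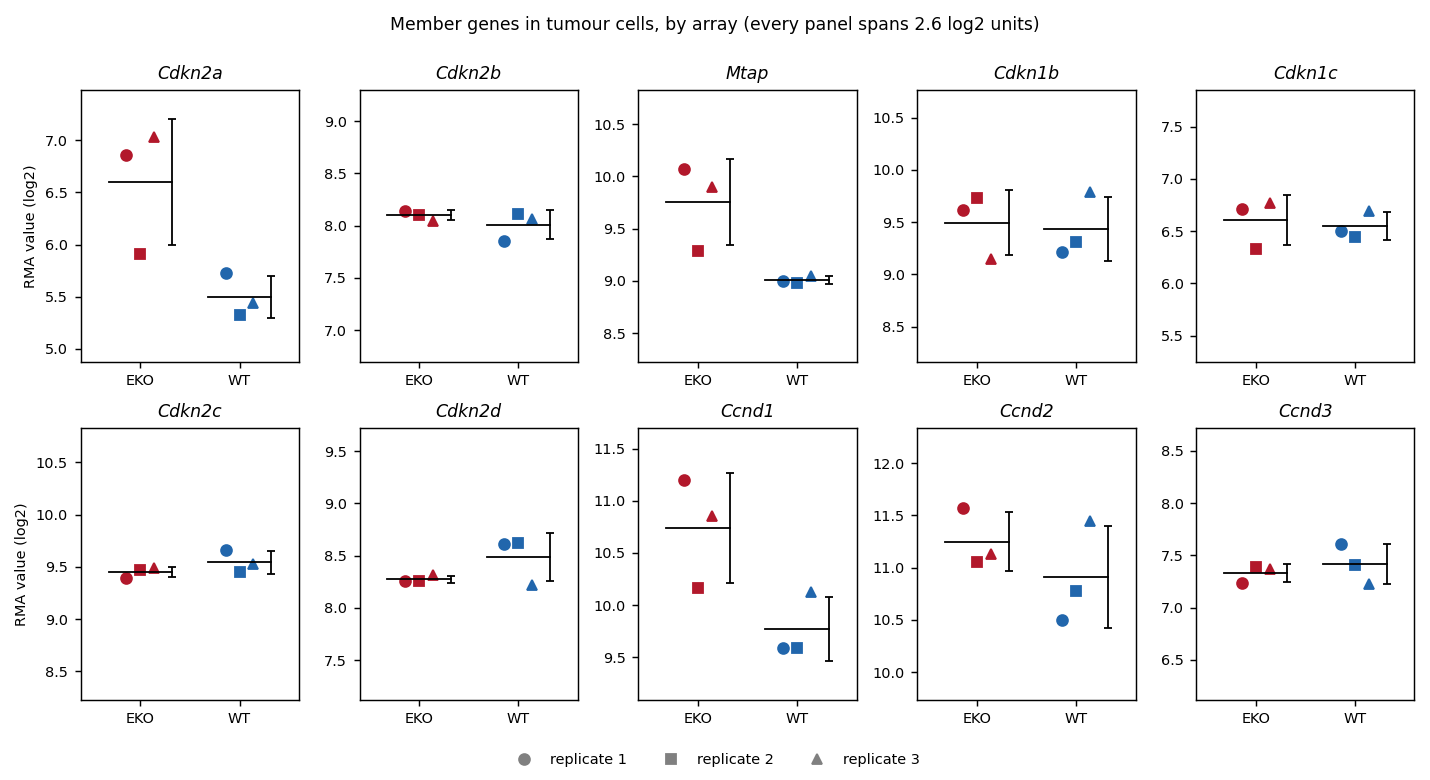
RMA log2 values (vertical axis) of the 10 genes in each array, EKO on the left and WT on the right of every panel, with marker shapes for the replicates, a line at the group mean and a bar of 1 SD. Cdkn2a, Mtap and Ccnd1 have all 3 EKO points above the WT points, with EKO replicate 2 the lowest EKO point in each.

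No shared higher level was seen among the listed neighbours further out on chromosome 4, some of which read low. Of 10 listed genes 9 were measured, 4 with higher and 5 with lower EKO means, where 50% of all genes had higher ones. Limma called 0 after adjustment and 0 at an unadjusted p under 0.05, where 7.13% of all genes had such an unadjusted p. Their median difference was -0.028, against 0.00014 over all genes. Hacd4, an enzyme of very long chain fatty acid elongation, averaged 6.41 ± 0.119 in EKO and 6.63 ± 0.0429 in WT tumours (SD, n = 3 each), a difference of -0.22 (SE 0.092, limma adjusted p = 0.698). Ifnb1, which encodes interferon beta, differed by -0.22 (SE 0.115), Tusc1 by 0.22 (SE 0.147) and Focad, a focal adhesion gene, by 0.19 (SE 0.143). Without WT replicate 3 Focad differed by 0.040 and Tusc1 by 0.11, and Tusc1 differed by 0.13 without EKO replicate 3 and 0.34 without EKO replicate 2. Ifnb1 differed by -0.13 without EKO replicate 2. Hacd4 and Dmrta1 were the 2 neighbours whose groups did not overlap, both lower in EKO, where 6.19% of all genes were so. Dmrta1 was picked out after its values were seen, and it lay below the lower quartile in every array. Group means below the array medians were also found for Ifnb1 (3.95 in EKO and 4.17 in WT), Slc24a2 (4.94 and 4.97) and Elavl2 (5.12 and 5.23). In genes this dim a higher level could be missed.

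**Figure D2:**
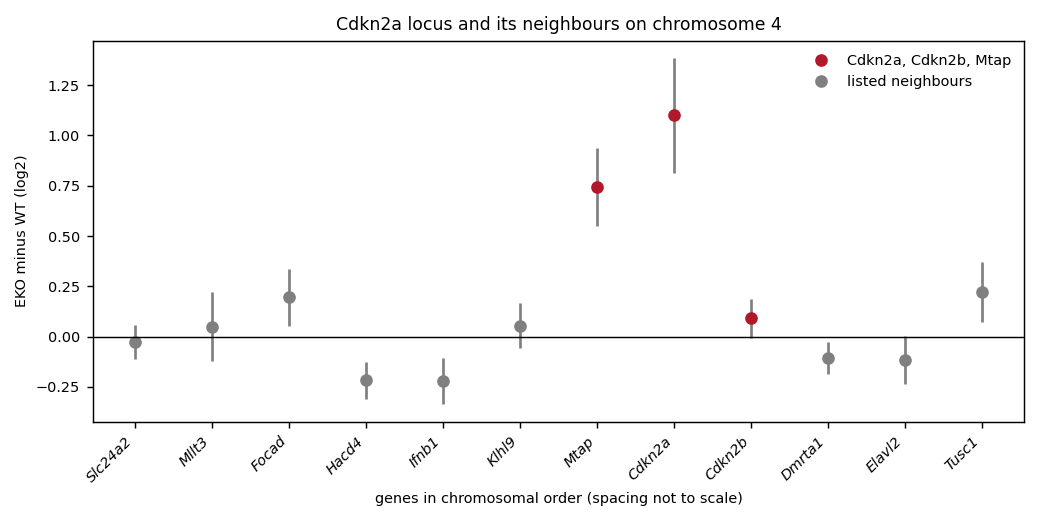
EKO minus WT differences (log2, vertical axis, bars of 1 SE) of the locus genes in red and the 9 measured neighbours in grey, in their order along chromosome 4 with spacing not to scale. Mtap at 0.74 and Cdkn2a at 1.10 stand above the neighbours, which lie between -0.22 and 0.22, and Cdkn2b lies among these at 0.092.

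The 4 other inhibitors of cyclin-dependent kinases had small differences, and the groups overlapped for each. Cdkn1b, which encodes Kip1, read 9.61, 9.73 and 9.14 in EKO replicates 1, 2 and 3, against 9.21, 9.31 and 9.78 in WT replicates 1, 2 and 3. Both groups spread alike, with SDs of 0.311 in EKO and 0.305 in WT, and the difference of 0.059 (SE 0.203) was smaller than either. Its dimmer probe set lay under the lower quartile of all 6 arrays and differed by 0.022. Cdkn1c, which encodes Kip2 and is an imprinted gene, read 6.72, 6.33 and 6.77 in EKO replicates 1, 2 and 3, against 6.51, 6.44 and 6.70 in WT replicates 1, 2 and 3. EKO replicate 2 was the lowest of all 6 arrays, and the difference was 0.057 (SE 0.14).

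The remaining Ink4 genes had slightly lower EKO means. Cdkn2c, which encodes Ink4c, averaged 9.45 ± 0.0499 in EKO and 9.55 ± 0.109 in WT tumours (SD, n = 3 each), a difference of -0.097 (SE 0.0904). Cdkn2d, which encodes Ink4d, read 8.26, 8.25 and 8.31 in EKO replicates 1, 2 and 3, against 8.61, 8.62 and 8.22 in WT replicates 1, 2 and 3. WT replicates 1 and 2 lay above all EKO values and WT replicate 3 lay below them, so the difference of -0.21 (SE 0.124) rests on those 2 WT tumours. The 4 Ink4 genes thus differed among themselves, from 1.10 for Cdkn2a to -0.21 for Cdkn2d.

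Among the D cyclins, Ccnd1 was higher in each EKO tumour than in any WT tumour, and the groups overlapped for Ccnd2 and Ccnd3. Ccnd1, which encodes cyclin D1, read 11.20, 10.17 and 10.86 in EKO replicates 1, 2 and 3, against 9.59, 9.59 and 10.12 in WT replicates 1, 2 and 3. The gap between EKO replicate 2 and WT replicate 3 was only 0.046. The means were 10.74 ± 0.525 in EKO and 9.77 ± 0.306 in WT tumours (SD, n = 3 each), a difference of 0.97 (SE 0.274), or 1.96-fold. All 3 Ccnd1 probe sets separated the groups without overlap, with differences from 0.97 to 1.13.

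Ccnd2, which encodes cyclin D2, read 11.57, 11.05 and 11.13 in EKO replicates 1, 2 and 3, against 10.50, 10.78 and 11.45 in WT replicates 1, 2 and 3. WT replicate 3 lay above 2 of the 3 EKO values, and the difference was 0.34 (SE 0.254), with 0.14 without WT replicate 1, 0.18 without EKO replicate 1 and 0.61 without WT replicate 3. All 7 probe sets had higher EKO means, with differences from 0.17 to 0.52, and 0 separated the groups. Hair follicle markers, 7 of 7 measured, had the same order of WT arrays. Of these, 7 of 7 had higher EKO means, where 50% of all genes did. Their mean log2 level was 12.49, 12.34 and 11.48 in EKO replicates 1, 2 and 3, against 9.60, 11.28 and 12.90 in WT replicates 1, 2 and 3. Limma called 0 of these 7, with 0 at an unadjusted p under 0.05. Melanocyte markers had this order of WT arrays too, at 6.52, 8.39 and 9.58, and read 9.45, 8.68 and 7.70 in EKO replicates 1, 2 and 3. Cdkn1b also had this order of WT arrays, at 9.21, 9.31 and 9.78. Among the EKO arrays, replicate 3 was lowest in both lists and in Cdkn1b, while replicate 2 was lowest in Ccnd2. The part of either list in the Ccnd2 or Cdkn1b values was not tested.

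Ccnd3, which encodes cyclin D3, averaged 7.33 ± 0.0832 in EKO and 7.41 ± 0.191 in WT tumours (SD, n = 3 each), a difference of -0.082 (SE 0.117). Its 3 probe sets went both ways, from -0.082 to 0.13.

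**Figure D3:**
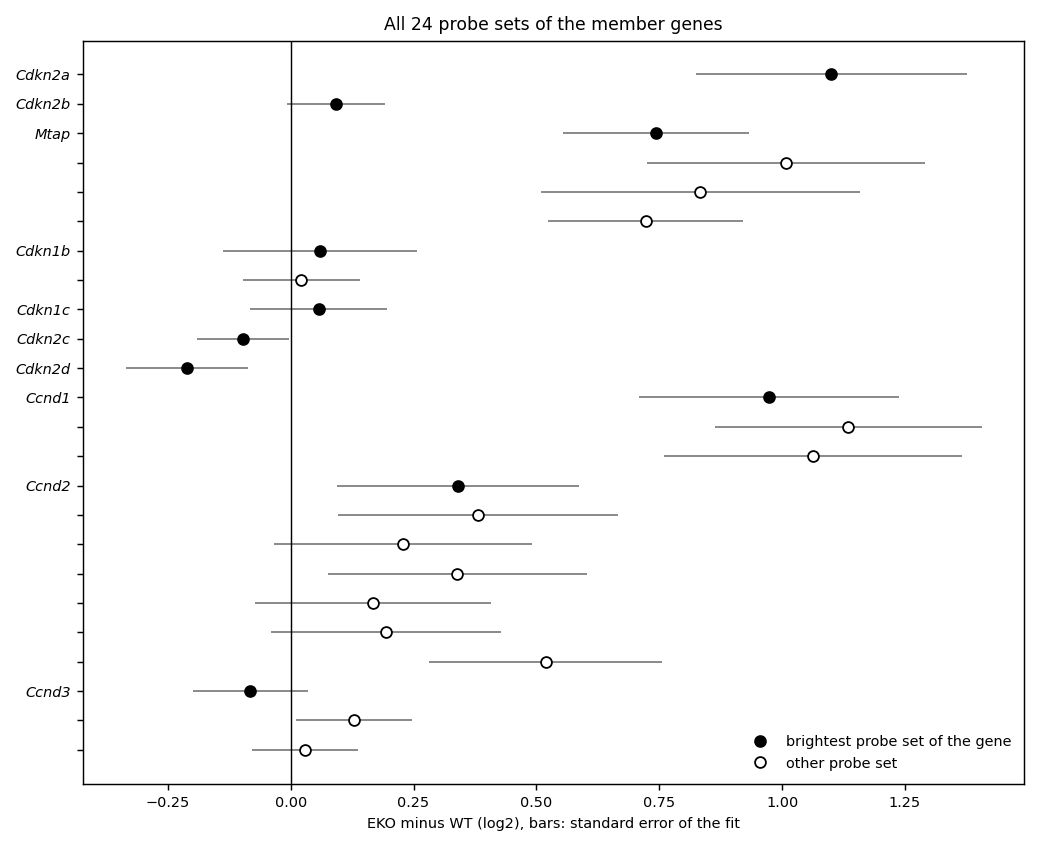
EKO minus WT differences (log2, horizontal axis, bars of 1 SE) of the 24 probe sets of the 10 genes, filled for the probe set used for the gene and open for the others. The probe sets of Cdkn2a, Mtap and Ccnd1 lie between 0.72 and 1.13, and those of the other 7 genes between -0.21 and 0.52.

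Over the 10 genes, 7 had higher EKO means, where 50% of all genes did, and the median difference was 0.075, against 0.00014 over all genes. Of their 24 probe sets 7 were higher without overlap, where 5.5% of all probe sets with 1 symbol were. In 3 of the 10 the groups did not overlap with EKO higher, and in 0 with EKO lower, where 5.78% and 6.19% of all genes were so. Limma called 0 of the 10 after adjustment, where 0.0055% of all genes were called, and 3 had an unadjusted p under 0.05, where 7.13% of all genes did. Without EKO replicate 2, 2 of the 10, Cdkn2a (difference 1.44, SE 0.146) and Mtap (0.97, SE 0.102), were called as higher, where 0.209% of all genes were, and Ccnd1 was not (1.26, SE 0.204). Because the genes were picked with this contrast known, nothing is read from these counts.

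The profiles of the locus genes and Ccnd1 over the arrays were set side by side. Likeness was measured as the root mean square difference between log2 profiles over the 6 arrays, each centred on its own mean, so that 0 is an identical profile. Mtap differed from Cdkn2a by 0.26 and Ccnd1 differed from it by 0.29, with 27 and 41 other genes closer to Cdkn2a. Cdkn2b differed by 0.65, with 6438 genes closer. On its brightest probe set Mtap was nearer to Ccnd1, at 0.21 with 14 genes closer, than to its neighbour Cdkn2a. Not every Mtap probe set kept this order. The measure also depends on the size of a difference, which was 0.74 on this Mtap probe set and 1.01 on another. Cdkn2a, Mtap and Ccnd1 were grouped because all their EKO values exceeded their WT values, which in part fixes their nearness to each other and their distance from Cdkn2b.

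The 5 genes most like Cdkn2a were Oaf (0.13), Slc25a24 (0.15), a mitochondrial carrier, Kcnn4 (0.15), a calcium-activated potassium channel, Wnt9a (0.16), a Wnt ligand, and Anxa3 (0.16), an annexin. Wnt9a read 6.84, 5.75 and 6.97 in EKO replicates 1, 2 and 3, against 5.33, 5.33 and 5.56 in WT replicates 1, 2 and 3. The 5 genes most like Ccnd1 were Gsr (0.090), the glutathione reductase, Adgrg2 (0.12), an adhesion receptor, Eps8 (0.15), a substrate of the EGF receptor, Ptpre (0.15), a tyrosine phosphatase, and Plod2 (0.16), a lysyl hydroxylase of collagen. Gsr read 9.15, 8.10 and 8.97 in EKO replicates 1, 2 and 3, against 7.68, 7.61 and 8.32 in WT replicates 1, 2 and 3. These genes were taken for their likeness, so their own differences between the groups are not a separate observation.

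**Figure D4:**
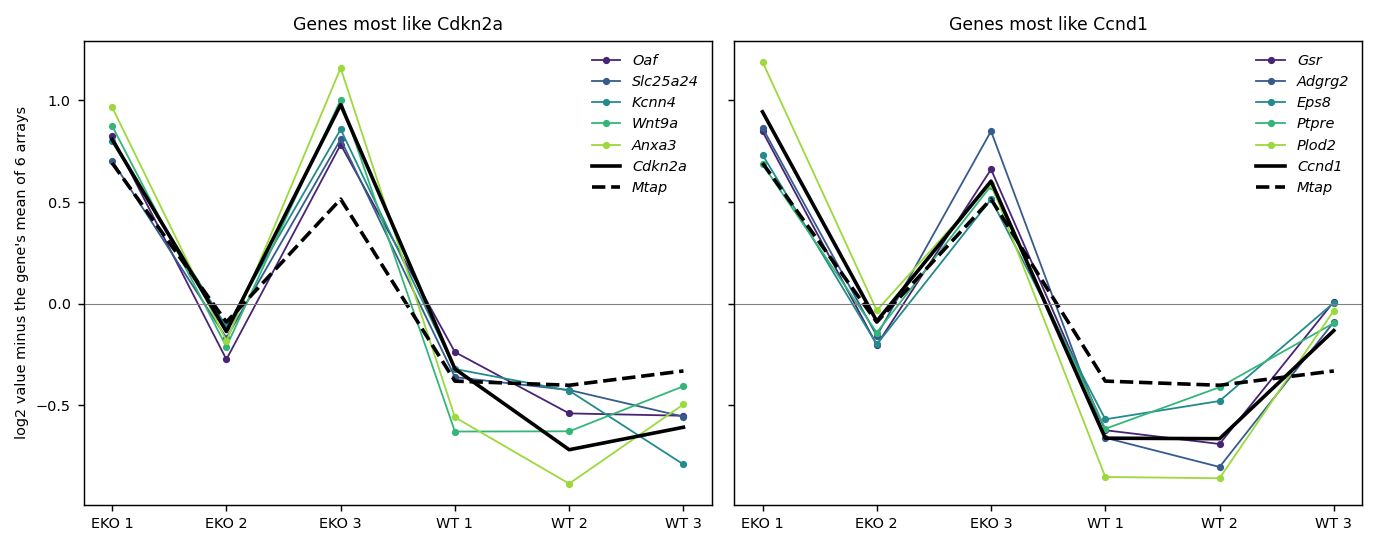
Log2 values minus each gene's mean of 6 arrays (vertical axis) for the EKO and WT arrays (horizontal axis), with lines joining the values of 1 gene. The left panel shows Cdkn2a, Mtap and the 5 genes most like Cdkn2a, and the right panel Ccnd1, Mtap and the 5 genes most like Ccnd1, all with EKO replicate 2 between EKO replicates 1 and 3 and most WT values.

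The kinases and pocket proteins on which these regulators act were followed with lists from general knowledge and read from the limma fit over all genes. These lists, like the others here, were written with earlier results of these data known. Limma called 0 of the 27 measured CDK and RB partners after adjustment, with 6 at an unadjusted p under 0.05, where 7.13% of all genes were, and their median difference was 0.049. Cdk4, a partner kinase of the D cyclins, averaged 9.74 ± 0.141 in EKO and 9.80 ± 0.0768 in WT tumours (SD, n = 3 each), and its difference of -0.066 (SE 0.101) changed sign without EKO replicate 2. Cdk6, the other partner kinase, averaged 9.47 ± 0.391 in EKO and 8.98 ± 0.289 in WT tumours (EKO minus WT 0.49, SE 0.223, limma adjusted p = 0.707), and the difference was 0.30 without EKO replicate 3 and 0.32 without WT replicate 3. Rb1, the retinoblastoma gene, had a difference of 0.049 (SE 0.136), and it changed sign without EKO replicate 1 or WT replicate 1. Cdkn1a, the p53-responsive Cip1 inhibitor, averaged 11.30 ± 0.0712 in EKO and 11.12 ± 0.198 in WT tumours (EKO minus WT 0.18, SE 0.117, limma adjusted p = 0.792), with 0.12 without WT replicate 2 and 0.29 without WT replicate 3.

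By smallest p in that list, Rbl1, a pocket protein of the retinoblastoma family, read 9.16, 9.12 and 9.14 in EKO replicates 1, 2 and 3, against 8.92, 8.90 and 8.80 in WT replicates 1, 2 and 3. The groups did not overlap, and EKO replicate 2 did not stand apart (difference 0.27, SE 0.0791, limma adjusted p = 0.621), but as a mean over its probe sets the difference was 0.030. E2f3, an activating E2F factor, had a difference of 0.41 (SE 0.136), also without overlap, and the atypical repressors E2f7 and E2f8 had differences of 0.46 (SE 0.173) and 0.47 (SE 0.184) with overlap. The limma adjusted p of these 3 lay between 0.625 and 0.672, and as means over probe sets E2f3 and E2f8 had differences of 0.21 and 0.25.

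The E2F target and S phase genes did not have higher EKO means as a whole. Limma called 0 of 28 measured members after adjustment, with 2 at an unadjusted p under 0.05, where 7.13% of all genes were. Of the 28, 11 had higher and 17 lower EKO means, where 50% of all genes had higher ones. The median difference was -0.040. The groups did not overlap in 3 of the 28 with EKO lower, where 6.19% of all genes were so. With EKO higher, this held for 0 of the 28, where 5.78% of all genes were so. The 3 lower genes included Pcna and Tyms. Pcna, the sliding clamp of DNA replication, averaged 12.31 ± 0.123 in EKO and 12.55 ± 0.0707 in WT tumours (EKO minus WT -0.24, SE 0.0961, limma adjusted p = 0.691). Tyms, the thymidylate synthase gene, had a difference of -0.21 (SE 0.0878) on a probe set with group means of 4.12 in EKO and 4.33 in WT tumours, and one of -0.044 as a mean over probe sets. Rrm2, a ribonucleotide reductase subunit, and Cdc20, an activator of the anaphase-promoting complex, had differences of 0.20 (SE 0.108) and 0.19 (SE 0.103), which were 0.11 and 0.12 without WT replicate 3. As a mean over probe sets Rrm2 had a difference of 0.066.

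On the Arf side, limma called 0 of 10 measured genes of the Mdm2 and p53 arm after adjustment. Of these, 2 had an unadjusted p under 0.05, where 7.13% of all genes did, and the median difference was 0.046. Zmat3, a p53 target, read 8.58, 8.07 and 8.62 in EKO replicates 1, 2 and 3, against 7.91, 7.92 and 7.88 in WT replicates 1, 2 and 3 (difference 0.52, SE 0.151, limma adjusted p = 0.621). Ccng1, a cyclin G gene induced by p53, had a difference of 0.64 (SE 0.231) and Trp53inp1, another target, one of 0.56 (SE 0.297), both with overlapping groups. Trp53inp1 had a difference of 0.27 without WT replicate 1, 0.90 without WT replicate 3 and 0.36 as a mean over probe sets. Mdm2, the ligase that Arf restrains, had a difference of 0.068 (SE 0.0842), and it was -0.019 as a mean over its probe sets. Trp53 was not analysed here.

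Regulators of Cdkn2a and inputs to the D cyclins likewise gave 0 calls. Most of the 21 measured regulators of Cdkn2a were Polycomb subunits that silence the locus. Of the 21, 15 had higher EKO means, where 50% of all genes did, and 0 had an unadjusted p under 0.05, where 7.13% did. The median difference was 0.060, and the differences ran from -0.41 to 0.20. Bmi1, a Polycomb repressor of the locus, had a difference of 0.16 (SE 0.109), Cbx2, another Polycomb subunit, 0.17 (SE 0.11), Twist1 -0.22 (SE 0.147) and Id1, a repressor of Ink4a transcription, -0.41 (SE 0.236, limma adjusted p = 0.761). Leaving out 1 array gave -0.19 for Id1 (EKO replicate 2), -0.12 and -0.094 for Twist1 (EKO replicate 2 and WT replicate 1), 0.072 and 0.25 for Bmi1 (EKO replicates 1 and 2) and 0.11 and 0.27 for Cbx2 (WT replicates 1 and 3). Of 17 measured mitogen inputs, with a median difference of 0.070, limma called 0. An unadjusted p under 0.05 was found for 1, where 7.13% of all genes had one. This was the AP-1 subunit gene Fosl1 (difference 0.75, SE 0.309, limma adjusted p = 0.693). As a mean over probe sets Fosl1 had a difference of 0.32. Stat3 (-0.34, SE 0.154), Stat5a (-0.37, SE 0.18) and the MAP kinase kinase gene Map2k1 (-0.21, SE 0.0997) had lower EKO means. The groups did not overlap in 1 of the 17, Map2k1, where 6.19% of all genes were lower without overlap. Stat3 was at -0.16 as a mean over probe sets and at -0.22 without WT replicate 1, and Stat5a was at -0.23 without EKO replicate 3.

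Cdkn2a is widely used as a marker of senescent cells, so 12 measured genes of senescence and its secreted factors were read beside it. Limma called 0 after adjustment and 5 had an unadjusted p under 0.05, where 7.13% of all genes did, with a median difference of 0.18 and members between -0.93 and 2.65. Igfbp3, a binding protein of insulin-like growth factors, averaged 10.78 ± 0.23 in EKO and 10.08 ± 0.117 in WT tumours, without overlap (EKO minus WT 0.70, SE 0.134, limma adjusted p = 0.546). Plaur, the urokinase receptor, and Dpp4, a surface peptidase, had differences of 0.51 (SE 0.172) and -0.40 (SE 0.135), and Dpp4 had -0.19 as a mean over probe sets. The groups overlapped for Plaur and did not for Dpp4. Lmnb1, a nuclear lamin known to be lost in senescent cells and picked out after its values were seen, had a difference of 0.41 (SE 0.159) with overlapping groups. Hmga2, an architectural chromatin protein that is mainly embryonic, read 9.16, 6.09 and 10.005 in EKO replicates 1, 2 and 3, against 5.67, 5.86 and 5.77 in WT replicates 1, 2 and 3 (difference 2.65, SE 0.896, limma adjusted p = 0.63). It was called without EKO replicate 2 (difference 3.82, limma adjusted p = 0.00605), and its adjusted p over all alternatives ran from 0.00605 to 0.998.

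**Figure D5:**
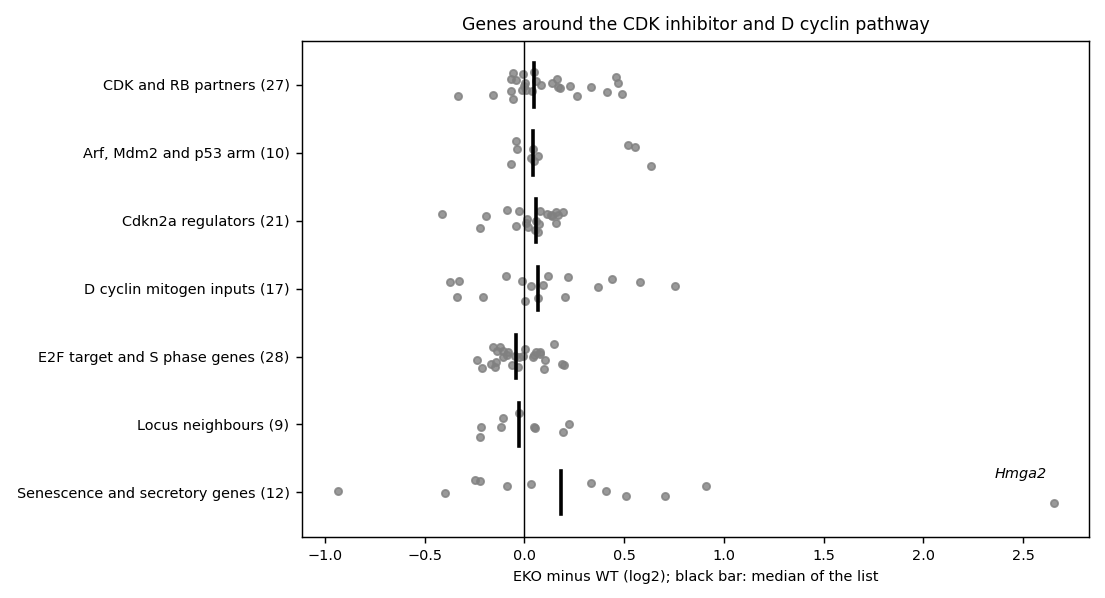
EKO minus WT differences (log2, horizontal axis) of the measured genes of the 7 lists, 1 point per gene and a black bar at each list's median, with the number of genes in brackets. The medians lie between -0.040 and 0.18, and Hmga2 at 2.65 lies farthest from 0.

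Markers of other cell types were read beside these values. Macrophage and dendritic cell markers, 8 of 8 measured, all had lower EKO means, with a mean log2 level of 7.03 to 7.35 in EKO and 7.37 to 7.74 in WT arrays. Fibroblast markers, 7 of 7 measured, lay at 10.83 to 11.49 in EKO and 10.84 to 11.62 in WT arrays, and skeletal muscle markers, 7 of 7 measured, at 6.39 to 7.50 in EKO and 6.25 to 9.56 in WT arrays. Limma called 0 genes in any of these 3 lists after adjustment, with 2, 1 and 0 at an unadjusted p under 0.05, where 7.13% of all genes were. Melanocyte markers had higher EKO means in 5 of 5 and adipocyte markers in 0 of 3 measured genes, where 50% of all genes had higher ones. The median differences of these 2 lists were 0.51 and -0.27. The T and NK cell, B and plasma cell, neutrophil and endothelial lists had higher EKO means in 2 of 7, 3 of 5, 2 of 5 and 2 of 5 measured genes, and limma called 0 in these 6 further lists, with 0 to 2 genes per list at an unadjusted p under 0.05. The part of any of these lists in the values of Cdkn2a, Mtap and Ccnd1 was not tested. In RNA of mixed cells, fewer cells of a type and less RNA per cell cannot be told apart.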

How the data were processed

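The authors deposited log2 values per probe set, and the submitters' processing notes name RMA and Partek 6.6. The values were used as deposited without a filter on low values. Groups and replicate numbers were read from the sample titles, where replicates are named biological. Of 45101 probe sets, 34945 carried 1 gene symbol, and each of 18193 genes was represented by its brightest probe set over the 6 arrays. The two-sided test was limma's moderated one (version 3.58.1, R 4.3.3), EKO against WT, with p-values adjusted by Benjamini-Hochberg across all genes and called under 0.05. The procedure was tested on simulated data. The members, the 7 pathway lists and the 11 marker lists were chosen with earlier results of these data known. Named genes were the members, Fabp5, up to 4 genes per pathway list by smallest p, the 5 genes most like Cdkn2a and Ccnd1, and 5 direct partners. Alternatives were a replicate block, genes in the upper 50% of means, quantile normalization run again, an intensity trend with robust variances, a mean over probe sets, and each array left out. Upstream sequences came from RefSeq by symbol. Batches could not be tested without scan dates, and no genome build is stated for the array.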

Additional observations from a re-analysis of the deposited data

How the results depend on the processing

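The difference of Cdkn2a kept its sign in all 10 alternatives that could give it, from 0.88 to 1.44, and it had no value among genes in the upper 50% of means. Mtap (0.58 to 0.97) and Ccnd1 (0.74 to 1.26) kept theirs in all 11 alternatives, as did Cdkn2b (0.013 to 0.14), Cdkn2c (-0.15 to -0.038), Cdkn2d (-0.34 to -0.14) and Ccnd2 (0.14 to 0.61), while Cdkn1b, Cdkn1c and Ccnd3 lay close enough to 0 to change sign in some. The number of the 10 genes past the threshold ran from 0 to 2 with 1 array left out, the 2 without EKO replicate 2, and was 0 otherwise. The number of all genes past it ran from 1 to 42 with 1 array left out, with 42 without EKO replicate 2 and 2 without WT replicate 2. Of 77 counts for the 7 pathway lists under the alternatives, 76 were 0, and the senescence list ran from 0 to 1 with 1 array left out, Hmga2 without EKO replicate 2. With the replicate number as a block, 1 gene passed, as without it. Same-numbered EKO and WT arrays deviated with correlations of -0.34 to -0.074, and 0 of 6 arrays correlated best with their own number, so the numbers were not taken as pairs. With 1 array left out, Cdk4 ran from -0.12 to 0.012 (above 0 without EKO replicate 2) and Rb1 from -0.031 to 0.18, below 0 without EKO replicate 1 or WT replicate 1. Mdm2 was -0.019 as a mean over probe sets, and the cause was not tested.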
